A study of Mus musculus with 6 samples.

Results

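The genes of cholesterol synthesis, uptake and efflux were examined in ILC1s (innate lymphoid cells of type 1) and in NK (natural killer) cells from tumours. The set holds 32 genes, taken by symbol from the deposited table of raw counts, out of 55291 symbols in all. Of these, 19 encode enzymes of sterol synthesis, 5 belong to the SREBP control system, 3 to uptake and trafficking, and 5 to the LXR receptors, their efflux transporters and an LXR target. All 32 were found in the table and all 32 passed the filter on low counts, which left 14475 genes for testing. The ILC1 group and the NK group each held 3 libraries of total RNA from cells sorted out of subcutaneous MC38 tumours, 14 days after wild-type C57BL/6 mice had received the tumour cells. MC38 is a mouse colon carcinoma line of C57BL/6 origin, and no mouse carried a labelled mutation or drug treatment. The sources used here do not give the sort markers. Whether the 3 libraries of a group stem from separate mice is not said in the labels, so each p-value reflects the spread between these libraries alone, which may be technical.

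Cells hold their membrane cholesterol within narrow limits by a feedback system that senses sterol in the endoplasmic reticulum. When sterol is low, SCAP carries the SREBP transcription factors to the Golgi for cleavage, and the released fragments switch on the enzymes of the mevalonate and sterol pathway. When sterol is high, INSIG proteins hold SCAP back. Surplus cholesterol gives rise to oxysterols, which activate the LXR nuclear receptors, and these switch on the efflux transporters and the ubiquitin ligase MYLIP (also called IDOL), which removes lipoprotein receptors from the cell surface. In lymphocytes, the SREBP programme is known to be switched on by activation and growth, and LXR is known to oppose it.

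The libraries differed in ways that the cell type did not explain. They held 16931099 to 20224847 counts, and a library with 0 counts of a gene could still hold up to 3, or 0.144 to 0.174 CPM (counts over TMM-scaled library size), for counting error only. NK replicate 3 correlated more closely with ILC1 replicate 1 (Pearson r = 0.977 over genes) than with NK replicate 1 (r = 0.880) or NK replicate 2 (r = 0.880). The matrix gene Col3a1 had 472, 762 and 20.8 CPM in ILC1 replicates 1 to 3, against 0.350, 4.16 and 403 CPM in NK replicates 1 to 3. ILC1 replicates 1 and 2 and NK replicate 3 are called the matrix-rich libraries here. Summed over 12 macrophage markers, ILC1 replicate 3 had 12768 CPM, ILC1 replicates 1 and 2 had 332 and 250 CPM, and the NK libraries had 96.5 to 252 CPM. Of 8 marker genes of ILC1s and NK cells, those that tell the cells apart followed the labels. Itga1, Cxcr6 and Zfp683 were higher in all 3 ILC1 libraries, and Eomes and Itga2 were lower in all 3. Ncr1, Klrb1c and Tbx21 are expressed by both cell types and do not tell them apart. Ncr1 and Klrb1c were also lower in all 3 ILC1 libraries, and Tbx21 overlapped. Among these 8 genes, Cxcr6 passed the test (62.9, 62.3 and 92.0 CPM in ILC1 against 5.84, 3.54 and 7.25 CPM in NK, edgeR adjusted p = 0.0447).

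No single sterol gene passed the test over all genes. In fitted fold change, 17 of the 19 synthesis genes lay on the ILC1 side and 3 of the 5 LXR genes on the NK side, and the groups stood apart without overlap for 15 synthesis genes and for Mylip in the LXR group (beside 12.5% of all genes higher and 13.3% lower in ILC1 without overlap). Summed over the 19 synthesis enzymes, the ILC1 libraries had 890, 1036 and 1068 CPM, against 473, 455 and 644 CPM in the NK libraries. The groups did not overlap, and the means were 998 ± 94.5 CPM in ILC1 and 524 ± 104 CPM in NK (SD, n = 3 each), a ratio of 1.91. The LXR group had 170, 163 and 307 CPM in ILC1, against 323, 345 and 239 CPM in NK, and here ILC1 replicate 3 lay above NK replicate 3. The largest part of the LXR sum in every library was the receptor gene Nr1h2, which overlapped between the groups. It had 113, 115 and 136 CPM in ILC1 and 160, 186 and 125 CPM in NK. The ratio of the synthesis sum to the LXR sum was 5.24, 6.37 and 3.47 in ILC1 against 1.47, 1.32 and 2.69 in NK, so that every ILC1 library lay above every NK library. With Nr1h2 in it, this ratio does not set synthesis against the efflux transporters alone. The SREBP control genes summed to 714, 693 and 748 CPM in ILC1 and 440, 488 and 503 CPM in NK, also without overlap. The uptake and trafficking sum overlapped, at 413, 439 and 1208 CPM in ILC1 and 502, 507 and 420 CPM in NK. In bulk RNA, fewer cells of a type and less RNA per cell cannot be told apart, and this holds for every level given here.

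**Figure D1:**
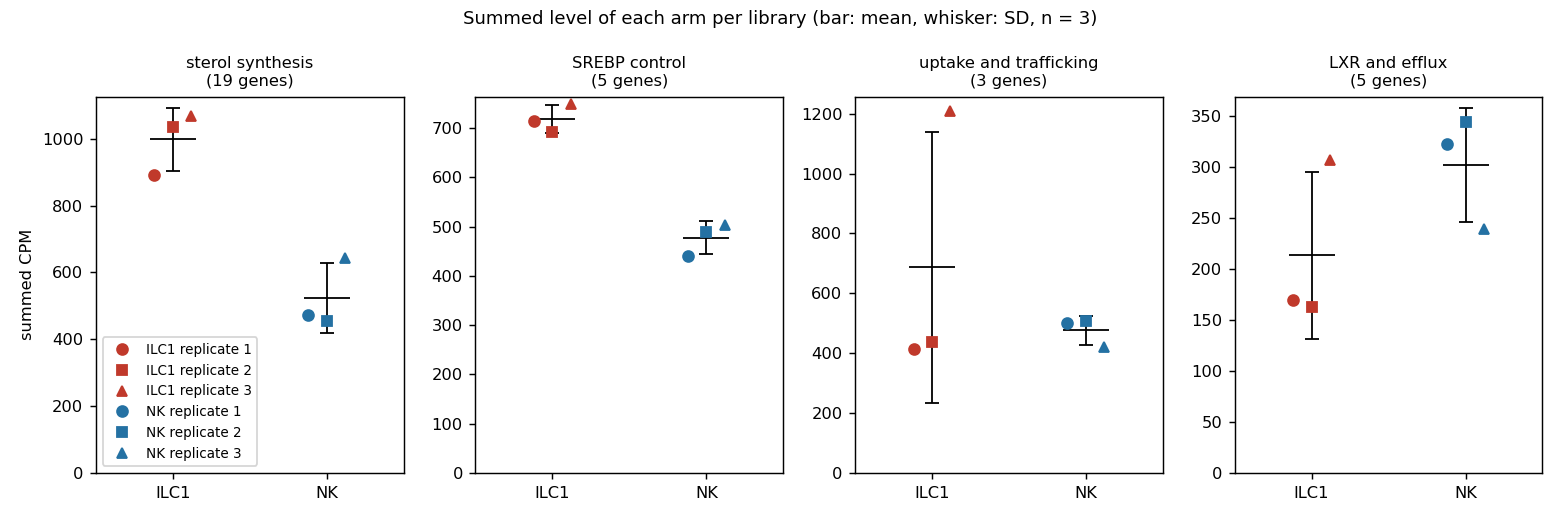
Summed CPM of the synthesis, SREBP control, trafficking and LXR genes in each library, ILC1 left of NK, with 1 point for each library and lines for the mean and SD (n = 3). The synthesis sums of ILC1 (890 to 1068 CPM) lie above those of NK (455 to 644 CPM), while in the LXR group ILC1 replicate 3 lies among the NK libraries.

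The model fitted with edgeR's quasi-likelihood test called 0 of the 32 genes at a Benjamini-Hochberg adjusted p under 0.05. It called 11 genes higher in ILC1 (0.076% of those tested) and 1 lower (0.00691%). At an unadjusted p under 0.05, 17 sterol genes were higher in ILC1 and 1 was lower, where 6.95% and 8.82% of all genes tested were higher and lower. The groups did not overlap for 19 sterol genes that were higher in ILC1 and 1 that was lower, beside 12.5% and 13.3% of all genes. With DESeq2, 12 sterol genes had an adjusted p under 0.05 and were higher and 1 was lower, beside 2.98% and 4.04% of all genes, and Abca1 got no adjusted p from it. With limma-voom, 0 were called in either direction, beside 0.111% higher and 0.0138% lower, and with estimated library weights 13 were called higher and 4 lower, beside 7.79% and 7.5%. Without NK replicate 3, edgeR called 9 sterol genes higher and 1 lower, beside 250 of all genes higher (1.67%) and 199 lower (1.33%), so the counts over all genes also depend on that library. The median log2 fold change (ILC1 minus NK) was 1.02 for synthesis, 0.34 for SREBP control, 0.73 for trafficking and -0.38 for the LXR group, against 0.08 over all genes tested.

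The first enzymes of the pathway turn acetyl-CoA into mevalonate and then into isoprene units. Hmgcs1, which makes HMG-CoA, had 143, 155 and 116 CPM in ILC1 and 44.3, 38.8 and 104 CPM in NK. NK replicate 3 lay well above the other NK libraries and just under the lowest ILC1 library. The fold was 2.21 (log2 1.14 ± 0.41 SE, edgeR adjusted p = 0.282). Acat2, the thiolase that joins the first acetyl-CoA units, overlapped, with 15.7 to 33.4 CPM in ILC1 and 9.94 to 22.6 CPM in NK. Mevalonate kinase, Mvk, had 18.4, 23.8 and 22.1 CPM in ILC1 and 10.0, 16.7 and 13.2 CPM in NK, and the groups stood apart by a narrow margin. The next kinase, Pmvk, overlapped: ILC1 replicate 3 had 65.7 CPM, the other ILC1 libraries 19.0 and 23.1 CPM, and the NK libraries 14.2 to 19.9 CPM. Mvd, which removes a carboxyl group to give isopentenyl diphosphate, had 31.3, 42.4 and 68.7 CPM in ILC1 against 24.4, 24.2 and 21.7 CPM in NK. The highest Mvd value was again in ILC1 replicate 3, and the NK values were close together. Its log2 fold change was 1.02 ± 0.30 (edgeR adjusted p = 0.225, DESeq2 adjusted p = 0.0459).

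Idi1 and Fdps turn those units into farnesyl diphosphate, the branch point to sterols and to protein prenylation. Idi1, the isomerase, had 33.2, 34.1 and 36.4 CPM in ILC1 against 11.4, 10.5 and 19.8 CPM in NK. The ILC1 libraries differed little from each other, and all lay above the highest NK library. The fold was 2.49 (log2 1.31 ± 0.28, edgeR adjusted p = 0.144, DESeq2 adjusted p = 0.00165). Fdps, farnesyl diphosphate synthase, was counted at low levels, with 3.34, 2.83 and 2.90 CPM in ILC1 against 1.70, 0.565 and 0.817 CPM in NK. Ggps1, which leads away from sterols towards geranylgeranyl groups, had 32.6, 27.5 and 22.5 CPM in ILC1 and 28.6, 28.1 and 28.4 CPM in NK, and the 2 groups overlapped. Its log2 fold change was -0.04.

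**Figure D2:**
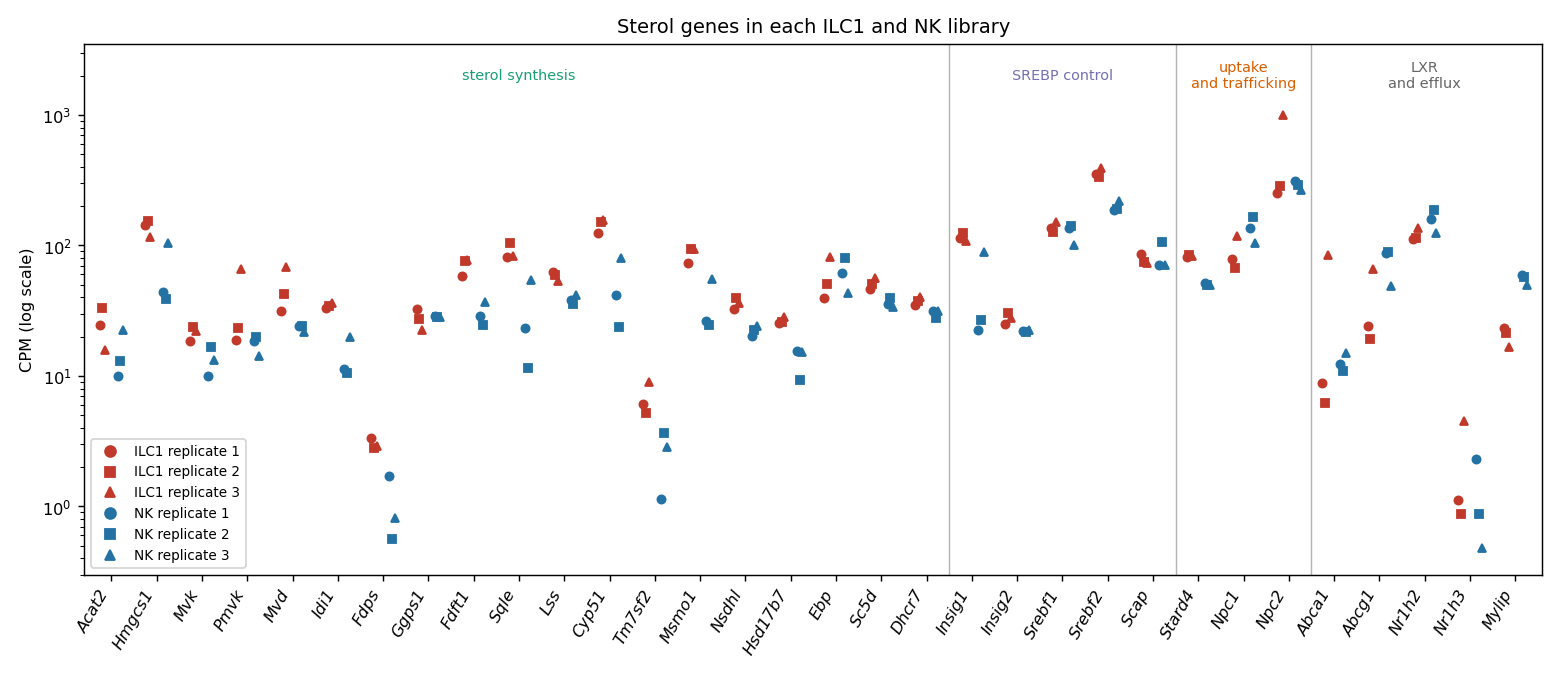
CPM of each of the 32 sterol genes in every library on a log axis, grouped by role, with ILC1 (red) left of NK (blue) and a marker shape for each replicate number. Most synthesis genes show the red points above the blue ones, with NK replicate 3 often the blue point nearest to ILC1, and Mylip shows all red points (16.7 to 23.2 CPM) below all blue ones (49.6 to 59.6 CPM).

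The enzymes committed to sterols, from squalene to lanosterol, showed the same order. Fdft1, squalene synthase, had 58.4, 76.2 and 77.9 CPM in ILC1 against 28.6, 24.7 and 37.1 CPM in NK, without overlap. Its fold was 2.35 (log2 1.23 ± 0.21, edgeR adjusted p = 0.108, DESeq2 adjusted p = 3.98e-05). Of the exon bases of Fdft1, 18.3% overlap Ctsb on the other strand, and Ctsb had 25712 counts in ILC1 replicate 3 against 4297 to 7164 in the other libraries. The part of those reads in the Fdft1 count of ILC1 replicate 3 was not tested, and ILC1 replicate 2 had nearly the same Fdft1 level. Sqle (chr15:59315077-59331192, plus strand, GRCm38) encodes squalene epoxidase, a rate-limiting enzyme of the pathway. It had 81.0, 104 and 83.0 CPM in ILC1 against 23.4, 11.5 and 54.2 CPM in NK. The NK libraries were far apart from each other, and the highest of them still lay below every ILC1 library. The fold was 3.01 (log2 1.59 ± 0.56, edgeR adjusted p = 0.282, DESeq2 adjusted p = 0.0329). Lss, which closes the rings to give lanosterol, had 62.6, 59.4 and 53.9 CPM in ILC1 against 38.3, 35.5 and 41.5 CPM in NK. Its fold of 1.53 was smaller and its spread narrower (log2 0.61 ± 0.13, edgeR adjusted p = 0.140).

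Most enzymes that turn lanosterol into cholesterol were higher in ILC1 as well. Cyp51, the demethylase that acts first on lanosterol, had 125, 152 and 158 CPM in ILC1 against 42.1, 23.9 and 80.1 CPM in NK. NK replicate 3 was the highest NK library and lay below all ILC1 libraries, and the log2 fold change was 1.57 ± 0.44 (edgeR adjusted p = 0.215, DESeq2 adjusted p = 0.00542). Msmo1, the sterol methyl oxidase, had 73.2, 93.2 and 94.0 CPM in ILC1 against 26.6, 24.7 and 55.4 CPM in NK. Its pattern over the libraries was that of Cyp51 (log2 1.29 ± 0.35, edgeR adjusted p = 0.199). Nsdhl, the sterol dehydrogenase that works with Msmo1, had 32.6, 39.5 and 36.2 CPM in ILC1 against 20.2, 22.5 and 24.0 CPM in NK. Hsd17b7, the reductase of the same demethylation complex, had 25.3, 25.7 and 28.2 CPM in ILC1 against 15.4, 9.40 and 15.3 CPM in NK. For both genes the groups stood apart, with folds of 1.62 and 1.97.

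Tm7sf2, a sterol reductase, was low throughout, with 6.12, 5.21 and 9.04 CPM in ILC1 against 1.15, 3.65 and 2.83 CPM in NK. Sc5d, a desaturase near the end of the pathway, had 46.3, 50.4 and 56.3 CPM in ILC1 against 35.9, 39.6 and 33.6 CPM in NK. Dhcr7, the last enzyme of the route through 7-dehydrocholesterol, had 35.3, 37.7 and 40.6 CPM in ILC1 against 31.4, 27.7 and 31.4 CPM in NK. All 3 stood apart between the groups, and the folds of Sc5d (1.40) and Dhcr7 (1.26) were the smallest of the 15 synthesis genes that did. Ebp, the sterol isomerase, went with neither group, at 39.7, 50.5 and 81.0 CPM in ILC1 and 61.3, 79.7 and 43.6 CPM in NK.

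In all, 15 of the 19 synthesis enzymes had every ILC1 library above every NK library, and 0 had the reverse. The shares over all genes were 12.5% and 13.3%. Of the 19, 17 had a fold change above 0, and the exceptions were Ggps1 and Ebp. DESeq2 called 10 of the 19 higher and 0 lower, beside 2.98% and 4.04% of all genes. NK replicate 3 was the highest NK library for 10 of the 19, against 42.7% of all genes, and it lay above both other NK libraries and below every ILC1 library for 9 of the 19, against 7.97% of all genes. ILC1 replicate 3 was the highest of the 6 libraries for 11 of the 19, against 24.8% of all genes.

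The SREBP control genes divided by member. Srebf2 (chr15:82147181-82205379, plus strand, GRCm38) encodes the SREBP most closely tied to cholesterol genes. It had 354, 335 and 389 CPM in ILC1 against 187, 192 and 219 CPM in NK. The groups were well separated and each was tight, with a fold of 1.80 (log2 0.85 ± 0.13, edgeR adjusted p = 0.104, DESeq2 adjusted p = 5.10e-08). Srebf1, the SREBP tied more to fatty acid genes, overlapped, with 135, 127 and 150 CPM in ILC1 and 137, 141 and 100 CPM in NK. Insig1, itself an SREBP target that holds SCAP in the endoplasmic reticulum, had 114, 125 and 108 CPM in ILC1 against 22.7, 27.0 and 89.9 CPM in NK. NK replicate 3 was 3.62 times the mean of the other NK libraries for Insig1 and nearly reached the ILC1 levels. The log2 fold change was 1.32 ± 0.56 (edgeR adjusted p = 0.333), and 2.23 without NK replicate 3 (edgeR adjusted p = 0.0252). Insig2, which is not known as a strong SREBP target, had 25.2, 30.6 and 27.9 CPM in ILC1 against 22.0, 21.6 and 22.5 CPM in NK. It stood apart by a small margin, with a fold of 1.27. Scap overlapped, with 73.0 to 85.6 CPM in ILC1 and 71.3 to 107 CPM in NK.

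The promoters of 5 genes are shown as examples of the roles described here: 3 synthesis enzymes, the feedback gene Insig1, and Mylip, the gene of the LXR group without overlap. Each line gives the 250 bases before the RefSeq transcription start on GRCm38.p6, read 5′ to 3′ on the gene's strand. Capitals mark CCAAT or its reverse complement ATTGG, the box bound by NF-Y, a common partner of SREBP, and in Hmgcs1 also TCACCCCAC, a match to TCACNCCAC, a form of the sterol regulatory element. The windows are chr13:119690101-119690350 (plus strand) for Hmgcs1, chr13:8885356-8885605 (plus) for Idi1, chr8:64733579-64733828 (minus) for Msmo1, chr5:28071162-28071411 (plus) for Insig1 and chr13:45389492-45389741 (plus) for Mylip.
Hmgcs1: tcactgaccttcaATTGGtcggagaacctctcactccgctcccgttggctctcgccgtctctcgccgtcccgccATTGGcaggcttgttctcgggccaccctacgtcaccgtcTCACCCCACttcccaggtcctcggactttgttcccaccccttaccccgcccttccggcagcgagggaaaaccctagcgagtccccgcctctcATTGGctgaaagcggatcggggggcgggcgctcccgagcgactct
Idi1: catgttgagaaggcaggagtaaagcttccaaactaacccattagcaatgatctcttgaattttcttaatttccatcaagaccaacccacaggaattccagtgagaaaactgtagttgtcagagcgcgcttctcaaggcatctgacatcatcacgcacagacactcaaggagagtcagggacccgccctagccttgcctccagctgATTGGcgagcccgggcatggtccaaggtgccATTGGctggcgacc
Msmo1: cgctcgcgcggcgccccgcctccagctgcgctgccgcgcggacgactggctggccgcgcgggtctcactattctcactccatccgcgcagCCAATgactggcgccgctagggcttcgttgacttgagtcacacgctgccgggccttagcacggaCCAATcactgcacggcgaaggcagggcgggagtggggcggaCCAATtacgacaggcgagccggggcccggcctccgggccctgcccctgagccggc
Insig1: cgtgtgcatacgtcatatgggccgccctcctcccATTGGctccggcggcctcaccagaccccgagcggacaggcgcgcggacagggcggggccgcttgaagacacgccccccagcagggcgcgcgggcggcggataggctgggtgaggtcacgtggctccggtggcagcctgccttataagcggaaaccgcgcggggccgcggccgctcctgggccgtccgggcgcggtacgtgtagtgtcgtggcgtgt
Mylip: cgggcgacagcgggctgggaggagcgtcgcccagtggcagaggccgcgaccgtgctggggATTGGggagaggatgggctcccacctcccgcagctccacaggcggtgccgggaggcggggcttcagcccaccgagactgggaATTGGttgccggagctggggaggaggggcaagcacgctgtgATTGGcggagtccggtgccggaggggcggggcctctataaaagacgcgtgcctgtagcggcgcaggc

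RefSeq promoters of 300 bases (250 before the start and 50 after it) were matched by symbol for 26 of the 32 genes. CCAAT was found on either strand in 15 of 16 synthesis genes with a promoter (93.8%), 4 of 5 SREBP control genes and 1 of 4 LXR genes, where 42.8% of the genes tested and 37.4% of all 32851 promoters held it. In the LXR group that gene was Mylip. TCACNCCAC was found on either strand in 1 of the 26, Hmgcs1, where it began 137 bases before the start, and in 1.43% of the genes tested and 1.24% of all promoters. Where a gene has several RefSeq starts, a match in any of them was counted. The 2 motifs did not overlap in Hmgcs1. A match describes these letters only and is no evidence of binding.

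Among the uptake and trafficking genes, Stard4 stood apart most clearly. Stard4, a carrier that moves sterol between membranes and is a known SREBP target, had 82.3, 84.8 and 83.1 CPM in ILC1 against 51.4, 49.7 and 50.2 CPM in NK. The libraries of each group were almost level, NK replicate 3 and ILC1 replicate 3 included. The means were 83.4 ± 1.29 CPM in ILC1 and 50.4 ± 0.914 CPM in NK (SD, n = 3 each), a fold of 1.65 (log2 0.73 ± 0.10, edgeR adjusted p = 0.0978, DESeq2 adjusted p = 9.24e-09). By unadjusted p it was 49th of the 14475 genes. Npc1, the lysosomal membrane protein that exports cholesterol taken up with lipoproteins, had 79.4, 67.6 and 117 CPM in ILC1 and 136, 166 and 105 CPM in NK. ILC1 replicate 3 lay above NK replicate 3, and the other ILC1 libraries lay below all NK libraries (log2 -0.62 ± 0.27, edgeR adjusted p = 0.334). Npc2, the soluble lysosomal partner of Npc1, had 251, 286 and 1008 CPM in ILC1 and 314, 292 and 265 CPM in NK. ILC1 replicate 3, where the macrophage genes were high, set its fold of 1.77: the log2 fold change was 0.83 ± 0.57 with all libraries and -0.12 without that library (edgeR adjusted p = 0.523 and 0.665).

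The LXR group held the clearest difference in the other direction. Mylip (chr13:45389742-45412022, plus strand, GRCm38) had 23.2, 21.5 and 16.7 CPM in ILC1 against 59.6, 57.8 and 49.6 CPM in NK. Every ILC1 library lay far below every NK library, and ILC1 replicate 3 was the lowest. The means were 20.5 ± 3.38 CPM in ILC1 and 55.7 ± 5.30 CPM in NK (SD, n = 3 each), a fold of 0.368 (log2 -1.44 ± 0.17, edgeR adjusted p = 0.0830, DESeq2 adjusted p = 5.91e-09). It was 27th of the 14475 genes by unadjusted p, and the lowest adjusted p among the 32 genes was its own. Without NK replicate 3 it passed the test with edgeR (log2 -1.51, adjusted p = 0.0372).

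The efflux transporters depended on ILC1 replicate 3. Abcg1, which exports cholesterol to high-density lipoprotein, had 24.2, 19.1 and 66.5 CPM in ILC1 and 88.2, 89.4 and 48.9 CPM in NK. ILC1 replicates 1 and 2 lay below all NK libraries, and ILC1 replicate 3 lay among them. The log2 fold change was -1.04 ± 0.54 (edgeR adjusted p = 0.406) and -1.80 without ILC1 replicate 3 (edgeR adjusted p = 0.109). Abca1, which loads cholesterol onto apolipoprotein A-I, had 8.85, 6.24 and 84.0 CPM in ILC1 and 12.4, 11.0 and 15.0 CPM in NK. ILC1 replicates 1 and 2 were again the lowest of all 6 libraries and ILC1 replicate 3 the highest. The fitted log2 fold change of 1.37 ± 1.03 (edgeR adjusted p = 0.562) therefore had the sign of 1 library. Nr1h2, which encodes LXR beta, had 113, 115 and 136 CPM in ILC1 and 160, 186 and 125 CPM in NK, with an overlap of ILC1 replicate 3 and NK replicate 3. Nr1h3, LXR alpha, a form well known from macrophages and liver, was at 1.11, 0.877 and 4.52 CPM in ILC1 and 2.30, 0.873 and 0.480 CPM in NK.

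Macrophage genes went with these values. All 12 macrophage markers were highest in ILC1 replicate 3, where Lyz2 had 5838 CPM and Cd14 had 2562 CPM, against 94.2 to 117 and 51.5 to 68.6 CPM in ILC1 replicates 1 and 2 and at most 92.6 and 54.2 CPM in NK. For 6 of the 12 every ILC1 library lay above every NK library, beside 12.5% of all genes. Mertk was at 0 counts in NK replicates 1 and 2. Of the 32 sterol genes, 16 were highest in the same library, against 24.8% of all genes: 11 synthesis genes, Srebf1, Srebf2, Npc2, Abca1 and Nr1h3. Set against the mean of ILC1 replicates 1 and 2, the level there was 11.1 times as high for Abca1, 4.54 times for Nr1h3, 3.75 times for Npc2 and 3.12 times for Pmvk, and 1.08 to 1.86 times for the other 12. The part of macrophage RNA in these levels was not tested. Leaving ILC1 replicate 3 out, the groups did not overlap for 20 sterol genes that were higher in ILC1 and 5 that were lower (27.8% and 19.4% of all genes). The 5 held 4 of the 5 LXR genes and Npc1. Leaving out NK replicate 3, the counts were 20 and 4 (26.2% and 21.1% of all genes). Both counts were made after the data had been seen.

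**Figure D3:**
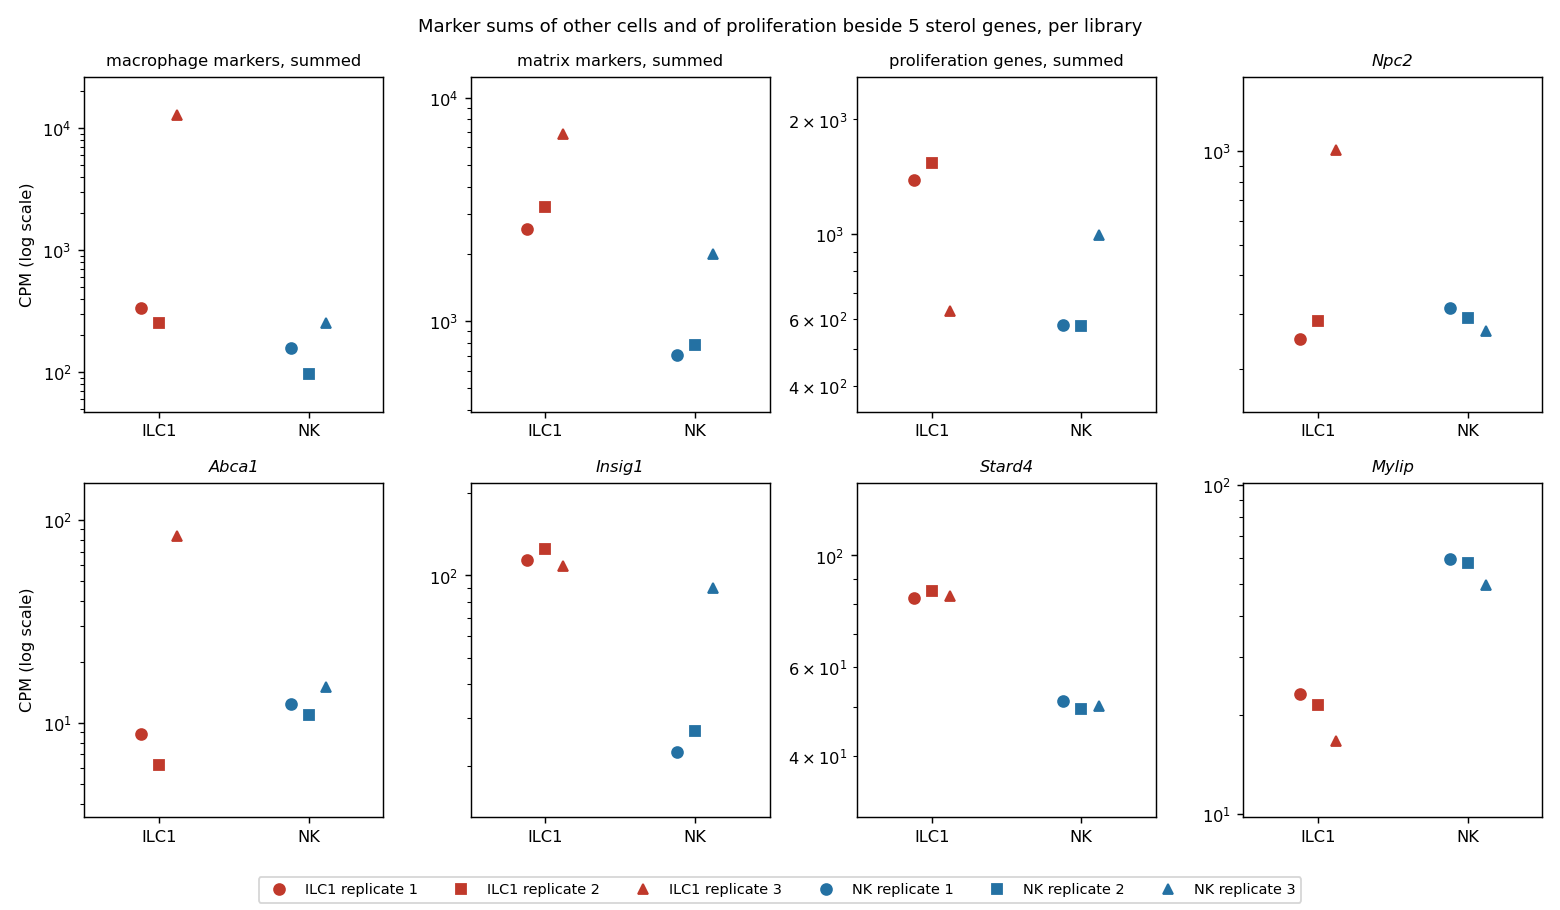
CPM per library on log axes, ILC1 left of NK, for 3 summed marker lists (macrophage, matrix and fibroblast, proliferation) and 5 sterol genes (Npc2, Abca1, Insig1, Stard4 and Mylip). Npc2 and Abca1 share the high ILC1 replicate 3 with the macrophage sum (12768 CPM). Insig1 in NK replicate 3 (89.9 CPM) lies above the other NK libraries. So do the macrophage (252 CPM), matrix (1990 CPM) and proliferation (995 CPM) sums. In ILC1 replicate 3, Insig1 (108 CPM) lies near the other ILC1 libraries, while the proliferation sum (629 CPM) lies far below them. Stard4 and Mylip show neither the high ILC1 replicate 3 nor the high NK replicate 3.

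Proliferation genes went with the synthesis genes in part. Summed over 12 of them, the level was 1388, 1537 and 629 CPM in ILC1 and 576, 574 and 995 CPM in NK, so that the matrix-rich libraries were the highest 3. Mki67 had 181, 194 and 57.8 CPM in ILC1 and 32.9, 30.2 and 135 CPM in NK. ILC1 replicate 3, with the lowest proliferation sum of the ILC1 libraries, had the highest synthesis sum of all 6 libraries. For 1 of the 12, Ccnb2, which was higher in ILC1, the groups did not overlap, beside 12.5% of all genes. The part of proliferation in the synthesis levels was not tested. The 10 matrix and fibroblast markers summed to 2589, 3250 and 6896 CPM in ILC1 and 703, 780 and 1990 CPM in NK. Of the 10, 2 were higher in ILC1 without overlap, beside 12.5% of all genes. That sum was mostly Thy1 in NK replicates 1 and 2 (694 and 761 CPM), a gene lymphocytes also express, and mostly Fn1 in ILC1 replicate 3 (5896 CPM), which macrophages also express. Its part in the sterol levels was not tested. The 8 tumour epithelium markers summed to 112, 106 and 382 CPM in ILC1 and 33.2, 20.5 and 16.8 CPM in NK, without overlap and with ILC1 replicate 3 highest, as in the synthesis sum. That sum was mostly Cdh1, with 107, 97.5 and 377 CPM in ILC1 and 23.3, 14.4 and 12.2 CPM in NK. Epcam also stood apart, with 4.06, 4.04 and 4.35 CPM in ILC1 and 3.45, 1.34 and 2.74 CPM in NK. Krt20 was at 0 counts in all 6 libraries, and Krt8, Krt18 and Krt19 were at most 1.66 CPM in ILC1 and 3.65 CPM in NK. The log2 fold changes of Krt8, Krt18 and Krt19 were -1.88, -1.43 and -0.39, with overlap between the groups. Of the 5 tumour epithelium markers tested, 2 had a fold change above 0 and 3 below. The part of tumour RNA in the sterol levels was not tested. The 7 T cell markers summed to 75.1, 73.2 and 208 CPM in ILC1 and 54.4 to 72.3 CPM in NK, without overlap. Of the 7, 4 were higher in ILC1 without overlap and 0 were lower, beside 12.5% and 13.3% of all genes. In fold change 6 lay above 0 and 1 below. The part of T cell RNA in the sterol levels was not tested. The sums were 417 to 611 CPM in ILC1 and 539 to 886 CPM in NK for 8 dendritic cell markers. For 5 endothelial markers they were 168 to 208 and 184 to 257 CPM. The dendritic cell sum was mostly Itgax (391 to 573 CPM in ILC1, 515 to 841 CPM in NK). The endothelial sum was mostly Pecam1 (163 to 191 and 177 to 257 CPM). Other markers of these lists were low, and some went the other way. Of 7 dendritic cell markers tested, 4 had a fold change above 0 and 3 below, and of 5 endothelial markers 4 and 1. The 5 B cell markers summed to at most 5.16 CPM in ILC1 and 2.21 CPM in NK, and the 5 neutrophil markers to at most 52.6 and 25.3 CPM.

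Within the matrix-rich libraries alone, 17 of the 19 synthesis genes were higher in both ILC1 libraries than in NK replicate 3 and 0 were lower in both, where 45.2% of all genes were higher in both and 35.7% lower in both. All 5 SREBP control genes were higher in both, and 4 of the 5 LXR genes were lower in both. The median log2 difference was 0.59 for synthesis, 0.39 for SREBP control, 0.02 for trafficking and -0.98 for the LXR group, against 0.06 over all genes. These differences set 2 ILC1 libraries against a single NK library. Hmgcs1, Sqle, Cyp51, Msmo1 and Insig1 differed by 0.52, 0.77, 0.79, 0.59 and 0.41 on the log2 scale there, each under the value from all 6 libraries. Stard4 kept its size (0.73), and Mylip differed by -1.15.

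**Figure D4:**
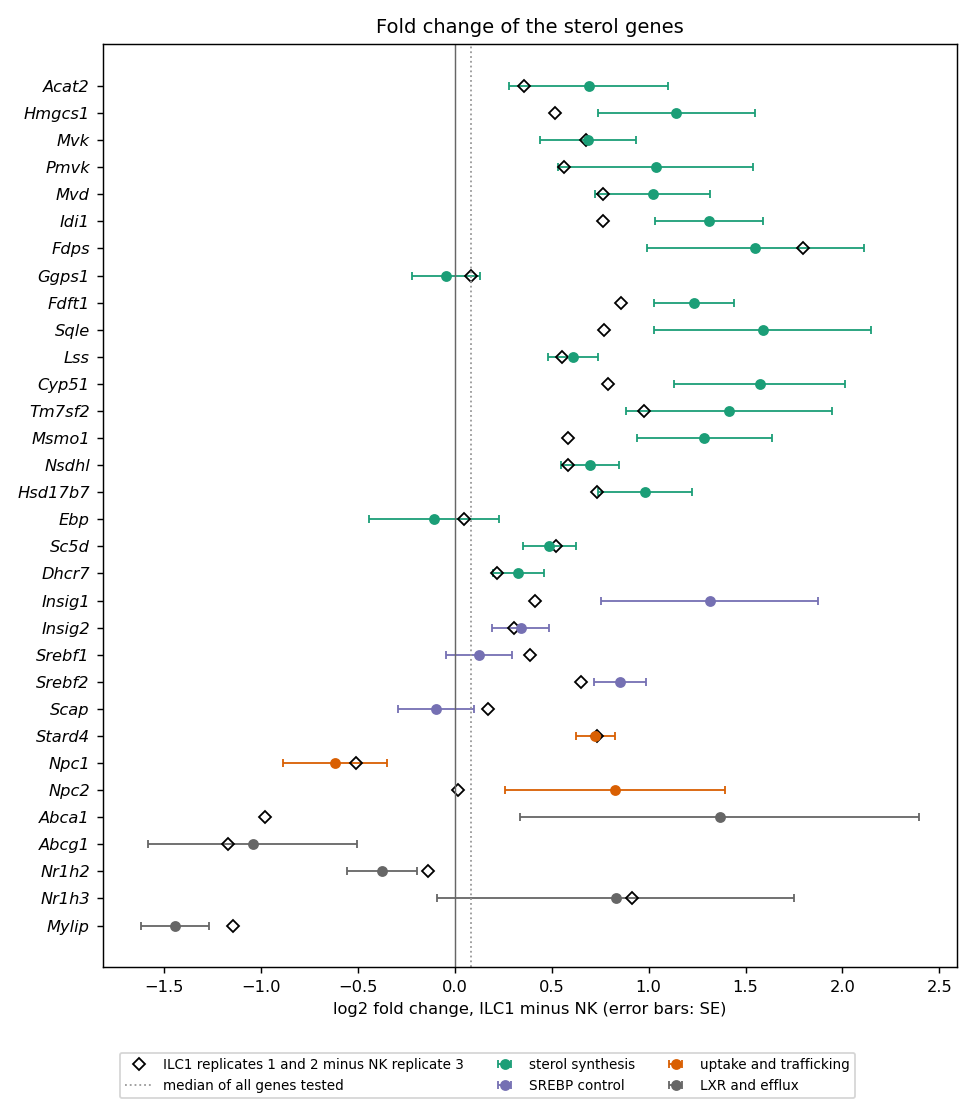
Log2 fold change of each sterol gene, ILC1 minus NK, from edgeR over all 6 libraries (filled points, bars SE) and within the matrix-rich libraries alone (open diamonds, ILC1 replicates 1 and 2 minus NK replicate 3). The dotted line is the median of all genes tested (0.08). Most synthesis genes lie right of it by both measures. Mylip (-1.44) and Abcg1 (-1.04) are among the genes left of it by both, and Abca1, Npc2 and Scap change sides.

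Levels between genes were compared per length, as RPKM (CPM per kilobase of GENCODE M21 exon). Among the synthesis genes, Cyp51 (32.8 ± 3.97 RPKM in ILC1, 11.0 ± 6.50 RPKM in NK) and Hmgcs1 (30.0 ± 4.35 in ILC1, 13.6 ± 7.88 in NK) had the highest means in ILC1. They did not differ from each other there beyond their spread. In ILC1 replicate 3, Pmvk (38.4 RPKM) and Mvd (37.0 RPKM) lay above both. In NK, Ebp was the highest synthesis gene by mean, at 26.6 ± 7.81 RPKM, against 24.7 ± 9.28 RPKM in ILC1. In NK replicate 3, Hmgcs1 (22.6 RPKM) lay above Ebp (18.9 RPKM). Fdps had the lowest mean counted level in both groups, at 0.718 ± 0.0661 RPKM in ILC1 and 0.244 ± 0.141 RPKM in NK. In NK replicate 1, Tm7sf2 (0.261 RPKM) lay below Fdps (0.404 RPKM). Part of the exon bases of Fdps is shared with another gene, as given below. Of the regulators, Srebf2 had 50.0 ± 3.86 RPKM in ILC1 and 27.8 ± 2.43 RPKM in NK, and Srebf1 had 24.4 ± 2.06 RPKM in ILC1 and 22.4 ± 3.97 RPKM in NK. Srebf2 thus lay above Srebf1 in every ILC1 library and in every NK library. Nr1h2 (36.1 ± 3.80 RPKM in ILC1, 46.8 ± 9.03 in NK) lay far above Nr1h3 (0.863 ± 0.811 in ILC1, 0.484 ± 0.380 in NK) in all 6 libraries. Values given with ± here are means and SD over 3 libraries.

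Reads of 50 bases cannot always be placed on 1 gene. Of the windows of 50 bases in the transcripts of Acat2, 39.1% are also found in another gene, mainly Acat3, and the shares were 26.5% for Fdft1 (Ctsb), 26.2% for Fdps, 25.3% for Idi1 (mainly Gm13502) and 11.6% for Hmgcs1. Acat3 had at most 46 counts and Gm13502 at most 21 counts in any library. The treatment of such reads and the use of strand are unknown from the labels. The levels of Acat2, Fdft1, Fdps and Idi1 are uncertain to that extent, and Tm7sf2 shares 12.1% of its exon bases with Vps51 on the same strand. Fdps shares 26.7% of its exon bases with Gm43738 on the same strand, and Gm43738 had 0 counts in every library. Whether this overlap lowered the Fdps counts was not tested.

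The genes around the sterol sensor had a median close to that of all genes. Of 12 genes of SREBP cleavage and sterol sensing in the endoplasmic reticulum, edgeR called 0 after adjustment, and the median log2 fold change was 0.10. At an unadjusted p under 0.05, 2 were higher and 1 was lower, beside 6.95% and 8.82% of all genes tested. Gramd1b, which carries sterol from the plasma membrane to the endoplasmic reticulum, had 88.7, 73.9 and 72.6 CPM in ILC1 against 106, 122 and 108 CPM in NK, without overlap (log2 -0.51 ± 0.14, edgeR adjusted p = 0.193). Erlin1, a membrane protein of the endoplasmic reticulum known to restrain SREBP, had 18.4, 26.6 and 39.1 CPM in ILC1 against 3.70, 7.40 and 15.5 CPM in NK (log2 1.66 ± 0.57, edgeR adjusted p = 0.277). Pgrmc1, which binds enzymes of sterol synthesis, had 66.3, 66.2 and 65.8 CPM in ILC1 against 51.4, 40.1 and 57.4 CPM in NK. All 3 genes were without overlap between the groups. Of the 12, 4 were higher and 3 were lower in ILC1 without overlap, beside 12.5% and 13.3% of all genes.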

How the data were processed

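RNA from sorted ILC1s and NK cells (3 libraries each) was selected with oligo(dT) beads and read as single 50-base reads, per the labels' protocols. The authors deposited raw counts per gene symbol. Per the submitters' processing notes, HISAT2 2.1.0, featureCounts 2.0.1 and GRCm38 were used. Annotation release, strand setting and handling of multi-mapping reads were not given in the sources used here. No molecular identifiers are described, so counts may include PCR copies, and limits cover counting error only. Counts ran from 16931099 to 20224847 per library.

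From the counts, CPM with TMM factors were computed, and edgeR 4.0.16 in R 4.3.3 was run with filterByExpr (14475 genes), robust quasi-likelihood fits, a single term for cell type, and Benjamini-Hochberg adjustment at 0.05 over all genes. Log2 fold changes are ILC1 minus NK. With 3 against 3 libraries the smallest two-sided p of an exact permutation test is 0.1, and genes were therefore tested in the fit across all genes. Groups do not overlap where all libraries of one lie above all of the other. Within the matrix-rich libraries, 0.1 CPM was added before log2. Alternatives were other normalizations and filters, DESeq2 1.42.0, limma-voom (limma 3.58.1) with and without library weights, a prior count of 2, a replicate block, library sets, and libraries left out. The edgeR test was tried on simulated counts, and no result of that trial is used here. Pairs of libraries were compared by a chi-square test over genes with at least 20 counts, and none agreed within sampling noise.

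Positions and exon lengths come from GENCODE M21, and promoters from RefSeq on GRCm38.p6. All 32 genes may be named. Values per library are given for those that do not overlap or have an unadjusted p under 0.05 and for the 3 smallest p of each role, and others were added after their values were seen. From the other lists of pathway genes, the 3 smallest p are named. For the isoprenoid branches, only the gene with the smallest p is named. The members and lists were chosen with earlier results of these data known.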

Additional observations from a re-analysis of the deposited data

How the results depend on the processing

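Over 16 alternatives, the synthesis and SREBP control medians stayed above 0 and the LXR median below 0. The counts of calls moved with the method. Without a low-count filter, 47 genes were called higher in ILC1 and 91 lower, with 1 sterol gene in each direction (Fdft1 and Mylip). A minimum mean of 5 CPM gave 2 genes lower, as did limma-voom. DESeq2 called 432 higher and 585 lower, with 12 and 1 sterol genes. With library weights limma-voom called 1127 and 1085, with 13 and 4 sterol genes. A term for library sets gave 17 genes lower, a synthesis median of 0.59, an LXR median of -0.99 and a trafficking median of 0.018. The matrix-rich libraries alone gave 956 genes higher and 935 lower, with 14 and 4 sterol genes, a synthesis median of 0.55, an LXR median of -1.04, and ratios of summed CPM of 1.45 for synthesis and 1.36 for SREBP control. That fit holds 1 NK library, whose spread is taken to be that of the ILC1 libraries. The median of trafficking, which is the value of Npc2 there, changed sign to -0.089 with library weights and to -0.025 in the matrix-rich libraries. The cause was not tested.

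Leaving out each library in turn gave 0 to 250 genes higher and 0 to 199 lower, and 0 to 9 sterol genes higher and 0 to 1 lower. The medians ran from 0.90 to 1.13 for synthesis, 0.27 to 0.42 for SREBP control, -0.12 to 0.74 for trafficking and -0.78 to -0.23 for the LXR group. For Npc2 the values ran from -0.12, without ILC1 replicate 3, to 1.16. The highest counts came without NK replicate 3. A replicate block gave 0 genes in either direction. Same-numbered libraries correlated at -0.36, -0.36 and -0.56 in their deviations from the group means. ILC1 replicates 1 and 2 correlated at 0.49 and 0.57 with NK replicate 3, the other matrix-rich library. In a group of 3, a library that stands apart weighs on all deviations. These values therefore cannot show whether the replicate numbers mark a shared mouse or day.

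With 3 libraries a group and a common dispersion of 0.352, a count of 0 calls does not show that sterol genes are alike in ILC1 and NK. Of the 32 sterol genes, 25 had a fold change of 1 direction in every alternative run. The other 7 were Ggps1, Ebp, Srebf1, Scap, Npc2, Abca1 and Nr1h3, with the opposite sign in 1 to 4 alternatives each, and Abca1 ran from -1.04 to 1.86. A limit on depth was not tested.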

Other observations

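Of 9 fatty acid genes under SREBP-1, edgeR called 0 after adjustment, and the median log2 fold change was 0.25. Scd2, a desaturase, had 317, 344 and 367 CPM in ILC1 against 193, 187 and 247 CPM in NK, and Acss2, which makes acetyl-CoA from acetate, had 31.6, 26.8 and 34.6 CPM in ILC1 against 60.9, 75.6 and 43.6 CPM in NK. Both stood apart between the groups (log2 0.71 ± 0.16 and -0.95 ± 0.23). Fads1, a desaturase of polyunsaturated fatty acids, had 51.3, 63.3 and 35.5 CPM in ILC1 against 4.15, 6.68 and 34.3 CPM in NK. NK replicate 3 lay near the ILC1 libraries for Fads1, as it did for Insig1.

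Of 8 genes of cholesterol esters and oxysterols, edgeR again called 0, and the median was 0.90. Within the matrix-rich libraries alone the median log2 difference was 0.23. Their sums overlapped, at 163, 169 and 337 CPM in ILC1 and 181, 191 and 166 CPM in NK. Ch25h and Cyp7b1 were at 0 counts in NK replicates 1 and 2. Soat2, an esterifying enzyme, had 17.6, 18.6 and 11.8 CPM in ILC1 against 40.1, 23.7 and 32.6 CPM in NK (fold 0.498, edgeR adjusted p = 0.210). Soat1, the more widely expressed form, had 55.8, 57.0 and 137 CPM in ILC1 against 26.5, 42.2 and 46.7 CPM in NK. The highest value was in the library with the macrophage genes, as for Cyp27a1, a sterol hydroxylase (0.557, 0.585 and 14.4 CPM in ILC1, 0, 0.257 and 0.144 CPM in NK). Of 8 genes of the isoprenoid branches, edgeR called 0, the median was 0.14, and the smallest p was that of Nus1, a subunit of dolichol synthesis (log2 0.48 ± 0.20, edgeR adjusted p = 0.322).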
